A study of Mus musculus with 46 samples.

Results

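The genes described here are 10 textbook targets of 2 inflammatory microRNAs, followed in sorted mouse microglia that had or lacked Dicer. Socs1, Inpp5d, Bach1, Cebpb, Tab2 and Jarid2 were taken as targets of miR-155, and Traf6, Irak1, Irak2 and Numb as targets of miR-146a. They were taken by symbol as known targets of these microRNAs. All 10 were found in each of the 4 tables, which together list 24824 gene symbols, and all 10 passed the filter on low values in every comparison.

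Dicer cuts precursor hairpins into mature microRNAs, which guide a silencing complex to matching sites in the 3′ UTRs of messenger RNAs and lower their stability or translation. In macrophages, miR-155 and miR-146a are both induced through Toll-like receptors and NF-kB. miR-155 is known for lowering brakes on inflammation such as Socs1 and SHIP1, and miR-146a for lowering the receptor-proximal adaptors Irak1 and Traf6.

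The series measured RNA in microglia, the macrophages that live in the brain, to examine how Dicer deficiency affects them in adults, after an inflammatory stimulus and during development. Adult mice of 10 to 12 weeks were Cx3cr1CreER:Dicer+/- (controls, which thus carry 1 intact Dicer allele and the same inducible Cre) or Cx3cr1CreER:Dicerfl/- (Dicer-deficient). The adult table held 4 control and 3 Dicer-deficient libraries at steady state. The total brain table held 3 control and 3 Dicer-deficient libraries at steady state, and 4 of each taken 6 h after 1 mg/kg lipopolysaccharide (LPS, a bacterial cell wall component) given into the peritoneum. PBS also stands in the labels of the steady-state mice. The hippocampus table had 2 control and 3 Dicer-deficient libraries at steady state and 2 of each after the same LPS treatment. The developmental table held 4 Dicerfl/fl controls of embryonic day 14 (E14), 5 newborn ones (P0) and 5 adult ones of 6 to 8 weeks. It also held 2 newborn Cx3cr1Cre:Dicerfl/fl libraries, which the labels set against P0 controls 1 to 3. The labels do not give those newborn controls a Cre, so the Cre and the deletion cannot be told apart there. Cells were sorted as CD45int CD11b+ F4/80+ Ly6C- Ly6G-, except at E14, where the gate was CD45+ CD11b+ F4/80hi, so stage and gate cannot be told apart in comparisons with E14.

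The mature microRNAs are printed first, because the bases in capitals, the seed at positions 2 to 8 counted from the 5′ end, define which sites they match. The sequences are from RefSeq (GRCm38.p6). miR-155-5p lies at chr16:84714143-84714165 on the plus strand, miR-146a-5p at chr11:43374435-43374456 on the minus strand and miR-146b-5p at chr19:46342790-46342811 on the plus strand.
mmu-miR-155-5p: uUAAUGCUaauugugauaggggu
mmu-miR-146a-5p: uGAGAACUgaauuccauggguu
mmu-miR-146b-5p: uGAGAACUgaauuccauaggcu
miR-146b-5p shares the seed of miR-146a-5p, so a site for the one matches the other as well. No other mature mouse microRNA of that table had the seed of miR-155-5p.

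The 3′ UTR of each target was searched on its own strand for an 8-base match, in which the complement of the seed is followed by A: AGCATTAA for miR-155 and AGTTCTCA for miR-146a. The longest annotated 3′ UTR per gene was used (GENCODE M21, GRCm38), and of 20603 genes with such a UTR, 3.04% held the first and 4.12% the second. All 6 miR-155 targets held an 8-base match for miR-155 and none for miR-146a. All 4 miR-146a targets held one for miR-146a and none for miR-155. The first such match of each target is shown with its neighbouring bases as 1 site of 25 bases, with the match in capitals.
Socs1: tgccgctgtgccgcAGCATTAAgtg
Inpp5d: agatgtttttaaaaAGCATTAAaga
Bach1: tctatgaacagtttAGCATTAAggg
Cebpb: ccttttccgtttcgAGCATTAAagt
Tab2: gccataaggtagaaAGCATTAAtga
Jarid2: actgattttgttttAGCATTAAact
Traf6: ccgctctggtgttgAGTTCTCAttt
Irak1: gactcagaggtcaaAGTTCTCAtgc
Irak2: ccggtgtctccgcaAGTTCTCAagt
Numb: agaatattttaaatAGTTCTCAata
The sites lay at very different places. That of Socs1 began at base 20 of a 3′ UTR of 1993 bases, that of Irak1 at base 40 of 1526, and that of Bach1 at base 2317 of 3475. Cebpb had the shortest 3′ UTR, 506 bases, with its match at base 454. Traf6 held 4 such 8-base matches in 4170 bases, and Irak1 and Jarid2 held 2 each. With shorter seed matches counted as well, 3 of the 6 miR-155 targets held a match for miR-146a (18.3% of all genes). For miR-155, 2 of the 4 miR-146a targets held a match (12.8% of all genes). Genes taken as known targets are likely to hold matches for their own microRNA, so these counts carry no test. A match is a run of letters and no evidence of binding in these cells. The microRNAs themselves were not measured: the rows of Mir155 and its host transcript Mir155hg were at 0 reads in all 39 libraries of the 3 tables that list them, and the libraries were made by capture of polyadenylated RNA.

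The values are the authors' normalized reads per gene, scaled separately in each table, and levels are therefore compared only within a table. Recovered depth ran from 898451 to 4573063 reads per library. All 7 microglial markers (Tmem119, P2ry12, Sall1, Cx3cr1, Siglech, Fcrls and Olfml3) were above 0 in every library. Dicer1 itself was not lower in the Dicer-deficient libraries by any of the 6 genotype tests, with differences from -0.91 to 0.83 on the log2 scale and adjusted p from 0.254 to 1.0. The gene-level count cannot show whether the floxed segment was lost. Several libraries stood apart from their group. Total brain control LPS library 33 had a summed level of these markers of 38810, against 15640, 15630 and 13180 in the others of its group and 39880 to 42980 in steady-state controls. Hippocampus control steady-state library 1 had a Cx3cr1 level of 687.6, against 7139 in the other library of its group. Cx3cr1 also varied within other groups, at 647.3 and 3129 in the newborn Dicer-deficient libraries, 490.4 to 8687 in the adult developmental controls, and 2487 in total brain Dicer-deficient steady-state library 11b against 5575 and 5330. In the developmental table, adult controls 1 and 2 correlated less with adult controls 3 to 5 (r 0.958 to 0.967 across genes) than within either subset (r 0.972 to 0.977), and newborn Dicer-deficient library 1 had the lowest depth, 992317 reads. The normalized values of that library summed to 2579576, against 1896250 in newborn Dicer-deficient library 2 and 1756661 to 1876963 in the P0 controls. Its normalized levels below thus stand on a larger total.

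Differences below are of log2(value + 1) with the standard error (SE) from limma, and a gene is called at a Benjamini-Hochberg adjusted p under 0.05 over all genes tested. The labels do not say that each library came from its own animals, and p-values then measure only how much these libraries vary, which may be technical. In bulk samples, a change in RNA per cell and a change in the share of cells that hold it cannot be told apart.

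Few of the 10 targets were called between Dicer-deficient and control microglia, and few of all genes tested were called as well. In adult steady-state microglia, 1 of 10 was called against 5.15% of all genes tested, and that was Numb, which was higher. In total brain at steady state limma called 0 of 10 (2.18% of all genes), and edgeR and DESeq2 called 0. At an unadjusted limma p under 0.05 there was 1 of 10, beside 2113 of 13423 genes tested. After LPS, 1 of 10 was called in total brain (8.87% of all genes), and that was Bach1, which was higher. The median difference over the 10 targets was -0.01 in adults, -0.08 in total brain at steady state and 0.29 in total brain after LPS, beside 0.05, -0.10 and -0.10 over all genes tested. In the hippocampus limma called 0 of 10 at steady state (0.17% of all genes) and 0 of 10 after LPS (0.307%). There edgeR and DESeq2 called 0 in both. At an unadjusted limma p under 0.05 there were 0 and 2 of 10, beside 1293 and 1050 of 12366 genes tested. In newborns, 1 of 10 was called (1.48% of all genes), and that was Cebpb, which was higher. The median difference was 0.11 and 0.06 in the hippocampus and 0.25 in newborns, beside -0.08, -0.05 and -0.06 over all genes. Each of the 3 calls was thus a different gene in a different setting. In all, 3 of the 60 tests of a target passed, beside 0.17% to 8.87% of all genes in the same settings.

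**Figure D1:**
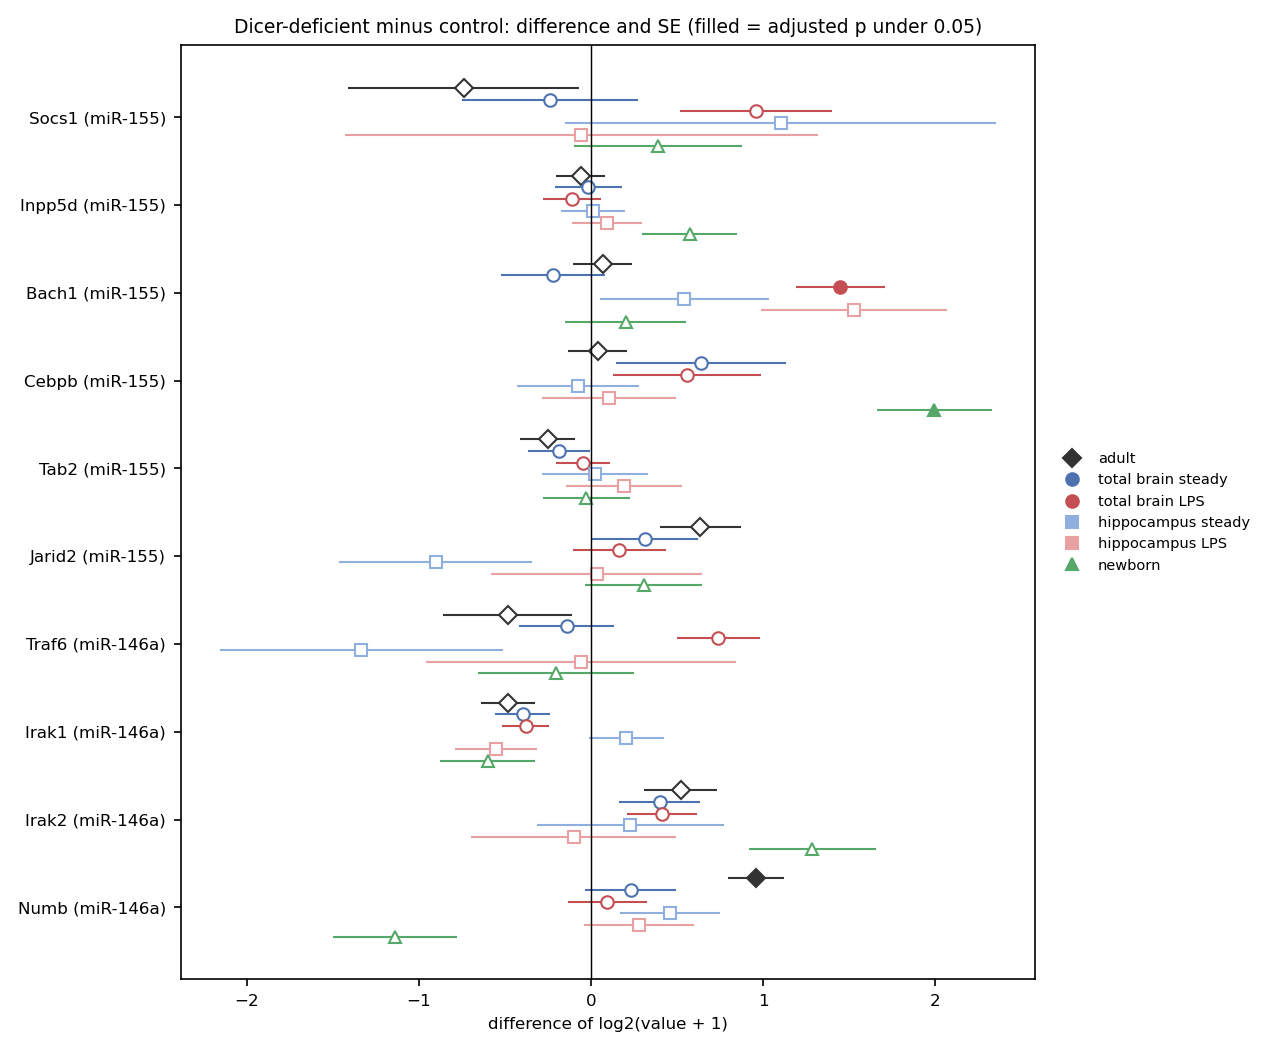
Differences of log2(value + 1) between Dicer-deficient and control libraries for the 10 targets in 6 settings, with bars of 1 SE and filled symbols at an adjusted p under 0.05. The filled symbols are Numb in adults (0.96), Bach1 in total brain after LPS (1.45) and Cebpb in newborns (2.00), while Irak1 lies left of 0 in 5 of 6 settings.

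LPS moved more of them. In total brain, 3 of 10 were called in controls (14.1% of all genes) and 6 of 10 in Dicer-deficient microglia (24.9% of all genes). Without control library 33, 4 of 10 targets were called in controls, and the genes called in all rose from 1897 to 3388, a number close to the 3349 called in Dicer-deficient microglia. Cebpb was higher and Tab2 and Numb were lower in both genotypes. Socs1 and Bach1 were called as higher, and Inpp5d as lower, in the Dicer-deficient libraries. The difference between the 2 LPS effects was itself called by limma for 0 of 10 targets (0.171% of all genes), by edgeR for 0 and by DESeq2 for 1. At an unadjusted limma p under 0.05 there were 2 of 10, beside 1258 of 13423 genes tested. In the hippocampus Cebpb was higher and Numb lower in both genotypes, 2 of 10 in controls (5.23% of all genes) and 2 of 10 in Dicer-deficient microglia (8.47% of all genes). The hippocampus interaction was called by limma for 0 of 10 (0.0162% of all genes), and by edgeR and DESeq2 for 0. At an unadjusted limma p under 0.05 there was 1 of 10, beside 706 of 12366 genes tested.

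During development of the controls, 3 of 10 were called from E14 to P0 (21.5% of all genes), all higher at P0. From P0 to the adult 6 of 10 were called (38.8% of all genes), 4 higher and 2 lower in adults. Between E14 and adult 5 of 10 were called (48.7% of all genes), all higher in adults. The last comparison shares its libraries with the first and the second. The P0 controls 1 to 3 also serve the newborn genotype comparison, and within the total brain and hippocampus tables each group serves a genotype comparison, an LPS comparison and the interaction.

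**Figure D2:**
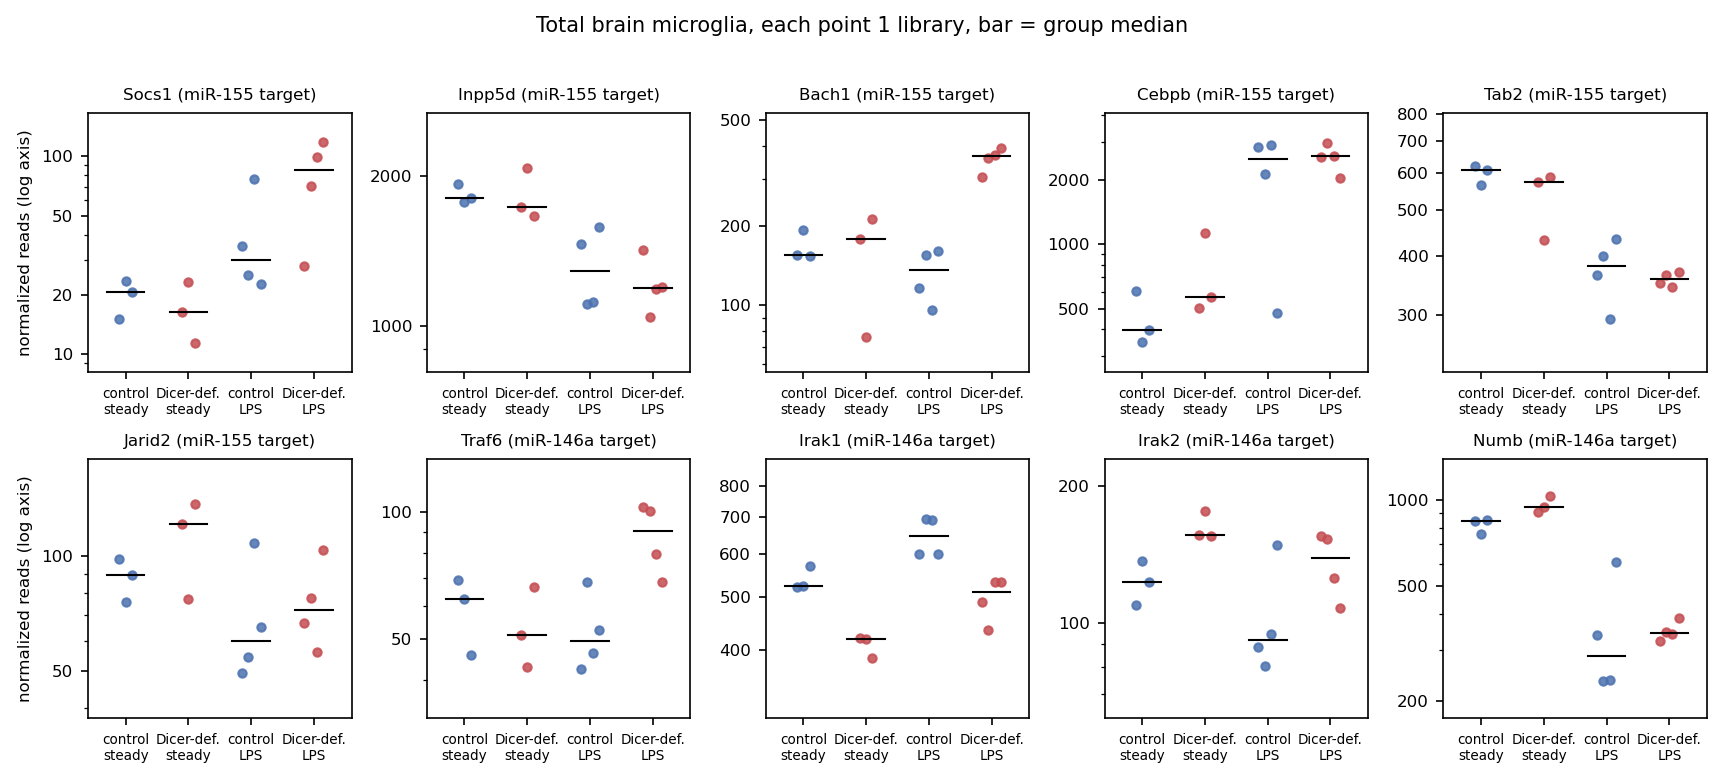
Normalized reads of the 10 targets in the 14 total brain libraries on log axes, with 1 point per library and a bar at the group median. Bach1 in Dicer-deficient LPS libraries (304 to 393) lies above all other groups, Irak1 is lower in Dicer-deficient than in control libraries before and after LPS, and control LPS library 33 lies near the steady-state libraries for Cebpb and Numb.

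Socs1 encodes a feedback inhibitor of JAK-STAT signalling and of Toll-like receptor adaptors, and is the classical miR-155 target in macrophages. In total brain its steady-state levels were 15.1, 23.5 and 20.7 normalized reads in controls and 16.4, 23.2 and 11.4 in Dicer-deficient libraries. After LPS they were 35.1, 25.1, 76.4 and 22.8 in controls and 27.8, 71.2, 99.3 and 118 in Dicer-deficient libraries. The Dicer-deficient LPS libraries thus all lay above their steady state, while the control groups overlapped, and 1 Dicer-deficient LPS library (35) was as low as the controls. LPS raised Socs1 by 2.03 ± 0.48 in Dicer-deficient microglia (adjusted p = 0.00454). In controls the difference was 0.83 ± 0.48 (adjusted p = 0.267). The interaction, 1.20 ± 0.67, was not called (adjusted p = 0.625), and neither was the genotype difference after LPS, 0.96 ± 0.44 (adjusted p = 0.197). Without Dicer-deficient LPS library 35 that genotype difference was 1.39, with an adjusted p of 0.0455.

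Socs1 rested on few reads in the adult and developmental tables and was widely spread in the hippocampus. In the adult table it had 2 to 10 reads per library, with 19.8, 15.95, 43.0 and 25.7 normalized reads in controls and 25.9, 7.72 and 13.9 in Dicer-deficient libraries. The groups overlapped, and the difference was -0.74 ± 0.67 (adjusted p = 0.620). In hippocampus, Dicer-deficient steady-state libraries held 8.46, 4.98 and 68.1 and controls 15.1 and 2.35, and after LPS the levels were 25.0 and 49.1 against 20.4 and 64.7. That spread left SEs above 1.2 for every hippocampus comparison of Socs1. In the developmental controls Socs1 was 3.16, 7.28, 4.74 and 11.51 at E14, 11.6, 8.71, 7.60, 14.2 and 7.01 at P0, and 10.8, 14.9, 11.2, 12.2 and 16.1 in adults. Adults were higher than E14 by 0.98 ± 0.35 (adjusted p = 0.0243), with E14 library 4 inside the adult range. The difference was no longer called without E14 library 1 (0.72, adjusted p = 0.111), E14 library 3 (0.88, adjusted p = 0.0688) or adult control 5 (0.90, adjusted p = 0.0537), or without adult controls 1 and 2 (0.99, adjusted p = 0.055) or 3 to 5 (0.96, adjusted p = 0.124).

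Inpp5d encodes SHIP1, the phosphatase that removes PI3K's lipid product in blood cells. Its level barely differed between genotypes in adults, at 2955, 3796, 3663 and 3549 normalized reads in controls and 3200, 3602 and 3217 in Dicer-deficient libraries (difference -0.06 ± 0.14, adjusted p = 0.878). In total brain it was 1925, 1777 and 1804 in steady-state controls and 1459, 1106, 1118 and 1580 in controls after LPS. The Dicer-deficient values were 1737, 2073 and 1663 before and 1423, 1043, 1188 and 1199 after LPS. In both genotypes the LPS libraries all lay below the steady-state ones. The fall was called in Dicer-deficient microglia (-0.59 ± 0.18, adjusted p = 0.0241), while in controls the difference was -0.50 ± 0.18 (adjusted p = 0.0774). The Dicer-deficient call was lost without LPS library 36 (-0.52, adjusted p = 0.0751), LPS library 37, or steady-state library 5 or 11b, and the control difference was called without LPS library 33 (-0.59, adjusted p = 0.0147). Hippocampus differences were of like size, -0.65 ± 0.21 in controls and -0.57 ± 0.19 in Dicer-deficient libraries, but neither was called (adjusted p = 0.101 and 0.0859; DESeq2 called both, adjusted p = 0.0343 and 0.0447).

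Inpp5d was higher in adult than in newborn microglia. Its levels were 664, 587, 750 and 685 at E14, 657, 596, 699, 733 and 721 at P0, and 1398, 1594, 1005, 1069 and 954 in adults. Every adult library lay above every younger one, by 0.80 ± 0.15 against P0 (adjusted p = 0.000287) and 0.82 ± 0.16 against E14 (adjusted p = 0.000282). The size depended on adult controls 1 and 2, the 2 highest: without them the differences from P0 and E14 were 0.57 and 0.59, both still called. The newborn Dicer-deficient libraries, 1118 and 836, lay above all 5 P0 controls, with a difference from P0 controls 1 to 3 of 0.57 ± 0.28 (adjusted p = 0.267), or 0.36 without Dicer-deficient library 1.

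Bach1 encodes a transcription repressor that pairs with small Maf proteins and represses the haem oxygenase gene Hmox1 and other antioxidant genes. It showed the widest genotype difference after LPS. In total brain its levels were 155.1, 192 and 154 normalized reads in steady-state controls, and 178, 75.9 and 212 in steady-state Dicer-deficient libraries. After LPS the controls held 117, 154.8, 96.3 and 160.4, and the Dicer-deficient libraries 304, 361, 368 and 393. All 4 Dicer-deficient LPS libraries were above each of the other 10, and the other 3 groups overlapped one another. The genotype difference after LPS was 1.45 ± 0.26 (adjusted p = 0.00236). It was called in all 15 alternatives tried, with differences from 1.31 to 1.55. LPS raised Bach1 by 1.31 ± 0.28 in Dicer-deficient microglia (adjusted p = 0.00228). In controls the LPS difference had the other sign, -0.36 ± 0.28 (adjusted p = 0.432). The interaction was 1.67 ± 0.40 (unadjusted p = 0.000544, adjusted p = 0.092). It was called by DESeq2 (1.56, adjusted p = 0.0207) and by limma without control LPS library 33 (1.78, adjusted p = 0.0448). The Dicer-deficient LPS libraries also held more of the summed monocyte and neutrophil markers (1166 to 4041) than 3 of the 4 control LPS libraries (575 to 898.5), and control library 33 held the most (4454); their part in the result was not tested.

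In the hippocampus Bach1 was 139 and 239 in steady-state controls, 204, 260 and 355 in steady-state Dicer-deficient libraries, 312 and 95.2 in controls after LPS, and 714 and 349.8 in Dicer-deficient libraries after LPS. After LPS both Dicer-deficient libraries were above both controls, and the difference was 1.53 ± 0.54, which was not called (adjusted p = 0.396). It ranged from 0.68 without control LPS library 16 to 2.38 without control LPS library 15, and was 1.02 without Dicer-deficient LPS library 18. At steady state the groups overlapped, with a difference of 0.54 ± 0.49 (adjusted p = 0.752), or 0.16 without control library 1. In the adult table Bach1 was 564, 526.3, 457 and 498 in controls and 565, 583 and 464 in Dicer-deficient libraries, with a difference of 0.07 ± 0.17 (adjusted p = 0.884). No stage comparison called Bach1. Its levels were 86.3 to 108 at E14 and 58.4 to 135 at P0, and in adults 79.0 and 69.3 in controls 1 and 2 but 134, 118 and 128 in controls 3 to 5. Newborn Dicer-deficient libraries, at 98.8 and 123, lay inside the P0 range.

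Cebpb encodes a transcription factor of the inflammatory response. LPS raised it in both genotypes and both regions, the highest of the LPS differences among the 10 targets in the hippocampus. In total brain it was 608, 351 and 399 normalized reads in steady-state controls and 2838, 2133, 2912 and 477 in controls after LPS. The low value belonged to library 33, and the other 3 were above every steady-state library. Dicer-deficient libraries held 504, 1122 and 567 before and 2560, 2954, 2583 and 2031 after LPS, without overlap. The LPS differences were 1.95 ± 0.46 in controls (adjusted p = 0.0109) and 1.87 ± 0.46 in Dicer-deficient microglia (adjusted p = 0.00647). Without library 33 the control difference was 2.56, and without steady-state control 8 it was 1.79 and no longer called (adjusted p = 0.053). The interaction was -0.08 ± 0.65 (adjusted p = 0.986), and -0.69 without library 33 (adjusted p = 0.501). In the hippocampus Cebpb went from 332 and 182 to 1416 and 2442 in controls, a difference of 2.91 ± 0.39 (adjusted p = 0.00109). In Dicer-deficient libraries it went from 273, 259 and 181 to 1496 and 2672, a difference of 3.09 ± 0.35 (adjusted p = 0.000252). Both hippocampus calls held in every alternative tried.

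Adult Dicer-deficient and control microglia differed little in Cebpb, at 1065, 989 and 1145 against 1020, 881, 1407 and 909 (difference 0.04 ± 0.17, adjusted p = 0.936). Newborn libraries differed. Dicer-deficient libraries held 920 and 475 normalized reads, and P0 controls 140, 154, 208, 211 and 291. Both were above all 5 P0 controls. The difference from P0 controls 1 to 3 was 2.00 ± 0.34 (adjusted p = 0.0204). Leaving out P0 control 1, 2 or 3 lost the call (1.88, 1.95 and 2.16, adjusted p = 0.215, 0.31 and 0.0882). It was kept without Dicer-deficient library 1, the higher one (1.52, adjusted p = 0.0014), and with all 5 P0 controls (1.76, adjusted p = 0.00452). Without library 2, the deeper one, 6 targets were called in newborns in place of 1: Cebpb (2.47), Inpp5d (0.78) and Irak2 (1.82) as higher, and Traf6 (-0.99), Irak1 (-0.91) and Numb (-1.64) as lower. The share called over all genes rose with it, from 1.48% to 37.2%, and the lone library 1 is then assumed to vary like the controls. Across stages Cebpb was 211, 293, 265 and 209 at E14, and in adults 424 and 656 in controls 1 and 2 but 248, 218 and 298 in controls 3 to 5. Adults were higher than P0 by 0.80 ± 0.26 (adjusted p = 0.0164), which became 0.38 (adjusted p = 0.216) without adult controls 1 and 2. It was also no longer called without adult control 2 alone (0.57, adjusted p = 0.0567) or P0 control 1 alone (0.69, adjusted p = 0.0534).

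Tab2 encodes an adaptor that links TRAF6 to the kinase TAK1, and is a target of miR-155 that sits in the same pathway as the miR-146a targets. LPS lowered it in total brain. Levels went from 620, 564 and 609 to 363, 399, 293 and 435 in controls and from 573, 431 and 587 to 350, 364, 344 and 370 in Dicer-deficient libraries. LPS and steady-state libraries did not overlap in either genotype. The differences were -0.70 ± 0.17 (adjusted p = 0.0123) and -0.56 ± 0.17 (adjusted p = 0.0213). Calls were lost in controls without steady-state library 7 or 9 (adjusted p = 0.0526 and 0.0517), and in Dicer-deficient microglia without LPS library 37 or steady-state library 5 or 12 (adjusted p = 0.0533, 0.0933 and 0.0977). The hippocampus values had the same sign but were not called, -0.91 ± 0.34 in controls (adjusted p = 0.166) and -0.74 ± 0.31 in Dicer-deficient microglia (adjusted p = 0.175). No genotype comparison called Tab2, with differences from -0.25 to 0.19. In development it was 332, 237, 263 and 292 at E14, 473, 483, 535, 487 and 476 at P0, and 339, 298, 473, 409 and 411 in adults. All P0 libraries were above all E14 libraries, by 0.81 ± 0.15 (adjusted p = 0.000469), in every alternative tried. Adults were lower than P0 by -0.36 ± 0.14 (adjusted p = 0.0396) and higher than E14 by 0.45 ± 0.15 (adjusted p = 0.0135). Without adult controls 1 and 2 the first was -0.19 (adjusted p = 0.313), and it was lost in 10 of 20 alternatives. The second was lost without E14 library 2 (0.37, adjusted p = 0.0556) and without adult controls 3 to 5 (0.19, adjusted p = 0.418).

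Jarid2 encodes a DNA-binding partner of the Polycomb repressive complex PRC2. It was called in none of the 15 comparisons. In the adult table Dicer-deficient libraries held 303, 228 and 334 normalized reads and controls 158, 175, 231 and 175. Only control 3 reached into the Dicer-deficient range, and the difference was 0.64 ± 0.24 (adjusted p = 0.145). In total brain the steady-state levels were 98.3, 75.7 and 89.6 in controls and 122, 77.3 and 137 in Dicer-deficient libraries, with a difference of 0.31 ± 0.31 (adjusted p = 0.677). In the hippocampus the sign was the other way at steady state, 58.1, 59.2 and 56.7 in Dicer-deficient libraries against 74.0 and 161 in controls (-0.90 ± 0.56, adjusted p = 0.613), and -1.46 without control library 1. The developmental controls ranged from 33.2 to 65.5 over all 3 stages.

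**Figure D3:**
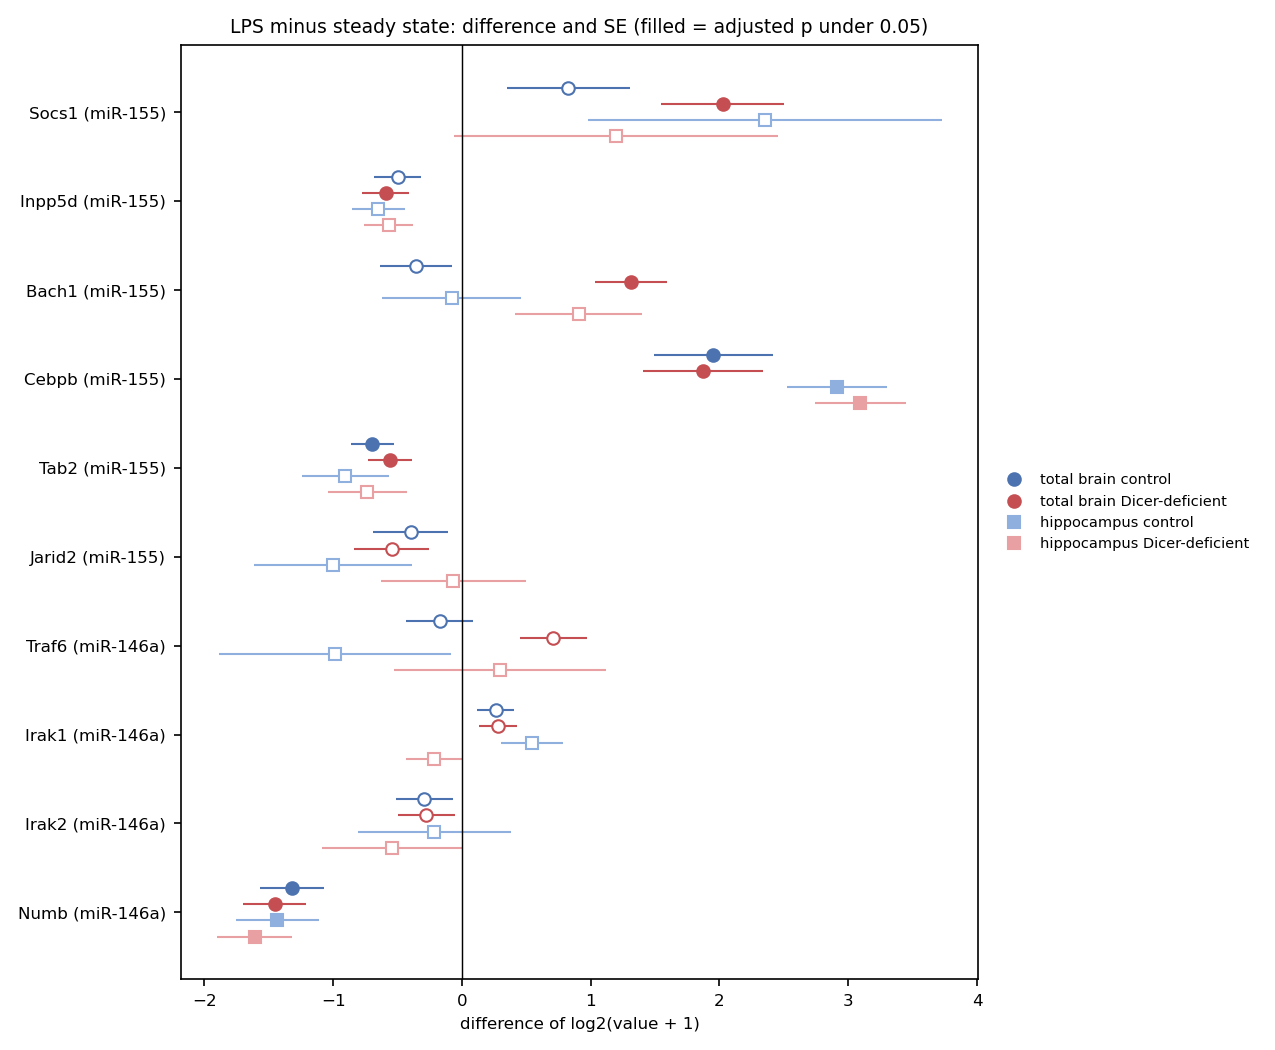
LPS minus steady state for the 10 targets, as differences of log2(value + 1) with bars of 1 SE, in controls and Dicer-deficient microglia of total brain and hippocampus; filled symbols have an adjusted p under 0.05. Cebpb is right of 0 (1.87 to 3.09) and Numb left of 0 (-1.61 to -1.32) in all 4 comparisons. Bach1 is called as higher only in Dicer-deficient total brain (1.31). The interaction there, the difference between the LPS effects of the 2 genotypes, had a limma adjusted p of 0.092 for Bach1.

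Traf6 encodes the ubiquitin ligase that carries signals from Toll-like and interleukin-1 receptors to TAK1, and is a founding target of miR-146a. In total brain after LPS its levels were 42.3, 68.3, 46.3 and 52.5 normalized reads in controls and 103, 101, 79.8 and 68.4 in Dicer-deficient libraries. The lowest Dicer-deficient value lay just above the highest control value (68.3). The difference was 0.74 ± 0.24 and missed the threshold with limma (adjusted p = 0.0631), and it passed with edgeR (0.82, adjusted p = 0.0402), with DESeq2 (0.82, adjusted p = 0.0164) and with limma without control LPS library 31 (0.88, adjusted p = 0.0484). At steady state the groups overlapped, at 69.0, 62.2 and 45.9 against 51.1, 42.9 and 66.6 (difference -0.14 ± 0.28, adjusted p = 0.854). The LPS difference was 0.71 ± 0.26 in Dicer-deficient microglia (adjusted p = 0.0536; edgeR 0.77, adjusted p = 0.0386) and -0.17 ± 0.26 in controls (adjusted p = 0.704). The interaction of 0.88 ± 0.37 was not called (adjusted p = 0.435).

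Traf6 did not repeat this in the other settings. In the adult table the groups overlapped, at 137, 84.95 and 51.0 in Dicer-deficient libraries and 163, 87.7, 102 and 134 in controls (difference -0.49 ± 0.37, adjusted p = 0.542). The hippocampus after LPS gave 52.8 and 55.8 against 65.3 and 48.9, a difference of -0.06 ± 0.90 (adjusted p = 1.0). Its steady-state Dicer-deficient libraries there were spread from 18.6 to 176. Newborn Dicer-deficient libraries disagreed with each other as well, at 31.2 in library 1 and 94.8 in library 2, around P0 controls of 53.8 to 92.3. P0 controls were higher than E14 libraries (31.7 to 45.5) without overlap, by 0.76 ± 0.27 (adjusted p = 0.0445), and that call was lost in 10 of 17 alternatives, with adjusted p up to 0.133 (without E14 library 2, 0.66).

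Irak1 encodes the kinase that joins the Myd88 complex after receptor engagement. It was lower in Dicer-deficient libraries, without overlap, in 5 of 6 genotype comparisons, and was called in none. Groups this small separate easily. In adults, total brain at steady state and after LPS, hippocampus after LPS and newborns, 2, 3, 3, 4 and 6 of the 10 targets separated. The share over all genes was not counted. In the adult table controls held 1326, 1272, 1300 and 1428 normalized reads and Dicer-deficient libraries 837, 1201 and 858. Every Dicer-deficient library was below every control, and library 2 was nearest to them. The difference was -0.48 ± 0.16 (adjusted p = 0.0932), and without that library it was -0.65 (adjusted p = 0.0225). In total brain the steady-state levels were 523, 524 and 570 in controls and 421, 420 and 386 in Dicer-deficient libraries, and after LPS 600, 696, 692 and 600 in controls and 491, 435, 533 and 532 in Dicer-deficient libraries. The differences were -0.40 ± 0.16 (adjusted p = 0.218) and -0.38 ± 0.14 (adjusted p = 0.0954). In the hippocampus after LPS the Dicer-deficient libraries held 486 and 491 and the controls 728 and 705 (difference -0.55 ± 0.24, adjusted p = 0.546). At steady state the hippocampus was the exception, with 600, 604 and 503 against 538 and 449, and a difference of 0.21 ± 0.22 (adjusted p = 0.796), or 0.34 without control library 1. Newborn Dicer-deficient libraries, at 268 and 410, were below all 5 P0 controls (471 to 519), by -0.60 ± 0.28 against P0 controls 1 to 3 (adjusted p = 0.248). Without Dicer-deficient library 1 that difference was -0.30 (adjusted p = 0.516), and without library 2 it was -0.91 (adjusted p = 0.00397).

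In total brain, Irak1 in LPS libraries lay above the steady-state libraries of the same genotype without overlap, but neither difference was called (0.26 ± 0.15, adjusted p = 0.259, and 0.28 ± 0.15, adjusted p = 0.188). In hippocampus controls the LPS libraries were also above, without overlap (0.54 ± 0.24, adjusted p = 0.257). The Dicer-deficient ones were below, without overlap (-0.215 ± 0.219, adjusted p = 0.629). The interaction there was -0.76 ± 0.32 (unadjusted p = 0.0372, adjusted p = 0.833). In development Irak1 was highest at P0, at 509, 503, 497, 519 and 471, against 378, 280, 360 and 349 at E14 and 368, 263, 425, 424 and 448 in adults. All P0 libraries were above all E14 and all adult libraries. The rise from E14 was 0.56 ± 0.16 (adjusted p = 0.0187), lost without E14 library 2 (0.46, adjusted p = 0.0748). The fall to adults was -0.40 ± 0.15 (adjusted p = 0.045) and was lost in 11 of 20 alternatives, among them without adult controls 1 and 2 (-0.21, adjusted p = 0.302) and with edgeR (-0.36, adjusted p = 0.0833).

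Irak2 encodes the related kinase that sustains the signal. It was called in no genotype comparison. The difference was above 0 in 5 of 6, as it was for Bach1, Cebpb, Jarid2 and Numb. In the hippocampus it was -0.101 ± 0.595 after LPS and 0.228 ± 0.543 at steady state (limma adjusted p = 0.93). The steady-state levels there were 86.6 to 293 normalized reads in Dicer-deficient libraries and 84.5 to 179 in controls. With 1 library left out that steady-state difference ranged from -0.308 to 0.765. In adults Dicer-deficient libraries held 358, 463 and 510 normalized reads and controls 233, 303, 333 and 370. Dicer-deficient library 1 lay inside the control range, and the difference was 0.52 ± 0.21 (adjusted p = 0.185). In total brain the levels at steady state were 156, 176 and 155.1 against 110, 137 and 123, without overlap, a difference of 0.40 ± 0.24 (adjusted p = 0.440). After LPS they were 156, 153, 125 and 108 against 88.7, 80.4, 94.8 and 149, where control library 33 was the high one. The difference there was 0.41 ± 0.20 (adjusted p = 0.233), and 0.60 without library 33 (adjusted p = 0.0464). The newborn Dicer-deficient libraries held 177 and 84.3, both above all P0 controls (39.7 to 60.8). That difference was 1.29 ± 0.37 (adjusted p = 0.11) against P0 controls 1 to 3, and it was called with all 5 P0 controls (1.29, adjusted p = 0.0259), with edgeR under RLE scaling and with DESeq2 (adjusted p = 0.0416 and 0.0332). Without Dicer-deficient library 1, the higher one, it was 0.76 (adjusted p = 0.207). In development Irak2 was 34.0 to 45.5 at E14, 39.7 to 60.8 at P0, and 116, 116, 105, 99.6 and 68.5 in adults. Every adult library was above every younger one, by 0.99 ± 0.21 against P0 (adjusted p = 0.000556) and 1.33 ± 0.22 against E14 (adjusted p = 3.26e-05), in every alternative tried.

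Numb encodes an endocytic adaptor that limits Notch signalling. It moved with genotype, LPS and stage. In the adult table controls held 1272, 1396, 1337 and 1032 normalized reads and Dicer-deficient libraries 2386, 2035 and 2985. Every Dicer-deficient library was above every control, by 0.96 ± 0.16 (adjusted p = 0.00187), and the call held in all 14 alternatives (0.82 to 1.09). Summed markers of endothelium also separated the genotypes there, at 38.6 to 51.0 in Dicer-deficient and 139 to 207 in control libraries, with Cldn5 at 0 in both groups; their part in the result was not tested. The steady-state libraries of total brain separated in the same direction, at 904, 945 and 1032 against 843, 763 and 848, but by 0.23 ± 0.27 (adjusted p = 0.729). In the hippocampus at steady state the Dicer-deficient libraries held 1055, 812 and 822 and the controls 895 and 468 (difference 0.46 ± 0.29, adjusted p = 0.625), and the difference was 0.93 without control library 1, the lower one.

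After LPS Numb fell in both genotypes and regions. In total brain the controls held 339, 234, 237 and 608 and the Dicer-deficient libraries 322, 347, 342 and 388, all below the steady-state libraries, and control library 33 was the highest. The differences were -1.32 ± 0.25 in controls (adjusted p = 0.00385) and -1.46 ± 0.25 in Dicer-deficient microglia (adjusted p = 0.000393). They held in every alternative tried, and without library 33 the control difference was -1.62. In the hippocampus the levels after LPS were 269 and 213 in controls and 287 and 294 in Dicer-deficient libraries. The differences were -1.43 ± 0.32 (adjusted p = 0.0223) and -1.61 ± 0.29 (adjusted p = 0.00507). The control call was lost without steady-state library 1 (-0.97, adjusted p = 0.174), without LPS library 15 or 16 (adjusted p = 0.062 and 0.164), and in a fit of only the 2 groups (adjusted p = 0.0664). The Dicer-deficient call was lost without LPS library 18 (-1.59, adjusted p = 0.0515).

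**Figure D4:**
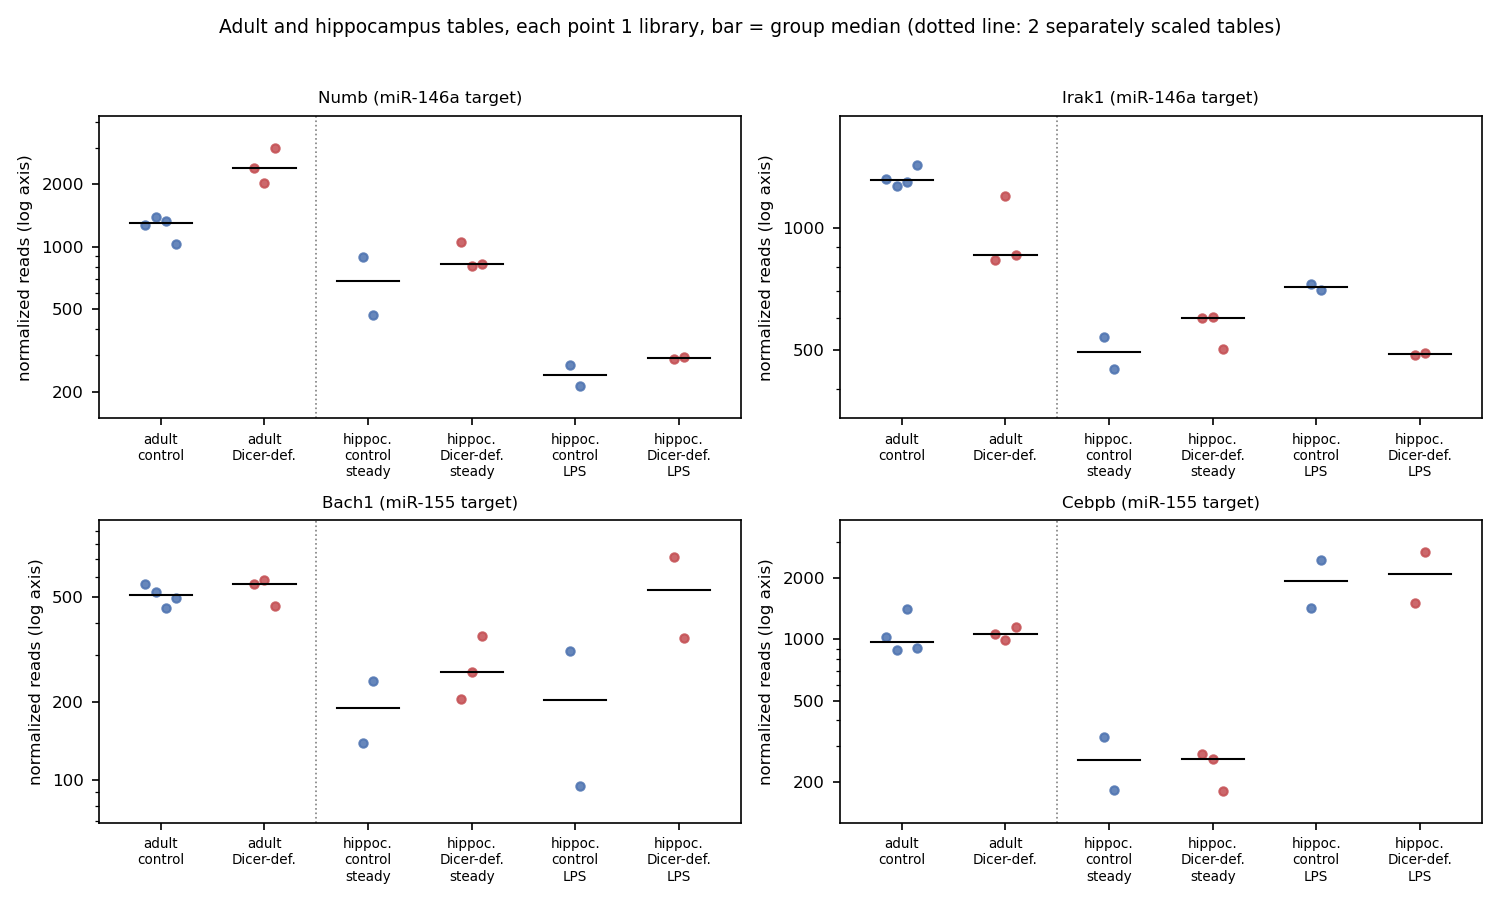
Normalized reads of Numb, Irak1, Bach1 and Cebpb in the adult and hippocampus libraries on log axes, with 1 point per library, a bar at the group median, and a dotted line between the 2 tables, which were scaled separately. Numb is higher in adult Dicer-deficient libraries (2035 to 2985 against 1032 to 1396), and Irak1 after LPS is 486 and 491 in Dicer-deficient and 728 and 705 in control hippocampus libraries.

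Numb was also the target that differed most between stages. It was 117, 92.6, 101 and 96.1 at E14, 129, 92.1, 105, 143 and 88.7 at P0, and 508, 520, 560, 500 and 437 in adults. The E14 and P0 ranges overlapped, and all 5 adult libraries lay far above both. Adults were higher than P0 by 2.19 ± 0.17 (adjusted p = 2.21e-09) and than E14 by 2.30 ± 0.19 (adjusted p = 1.58e-09), in every alternative tried. In newborns the genotype difference had the opposite sign to that in adults. Dicer-deficient libraries held 33.8 (13 reads) and 69.1 (59 reads), below all 5 P0 controls. The difference was -1.14 ± 0.36 against P0 controls 1 to 3 (adjusted p = 0.139), -0.63 without Dicer-deficient library 1, and -1.16 with all 5 P0 controls, where it was called (adjusted p = 0.0334). Newborn and adult libraries are in separately scaled tables, and the difference between their genotype effects was not tested.

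**Figure D5:**
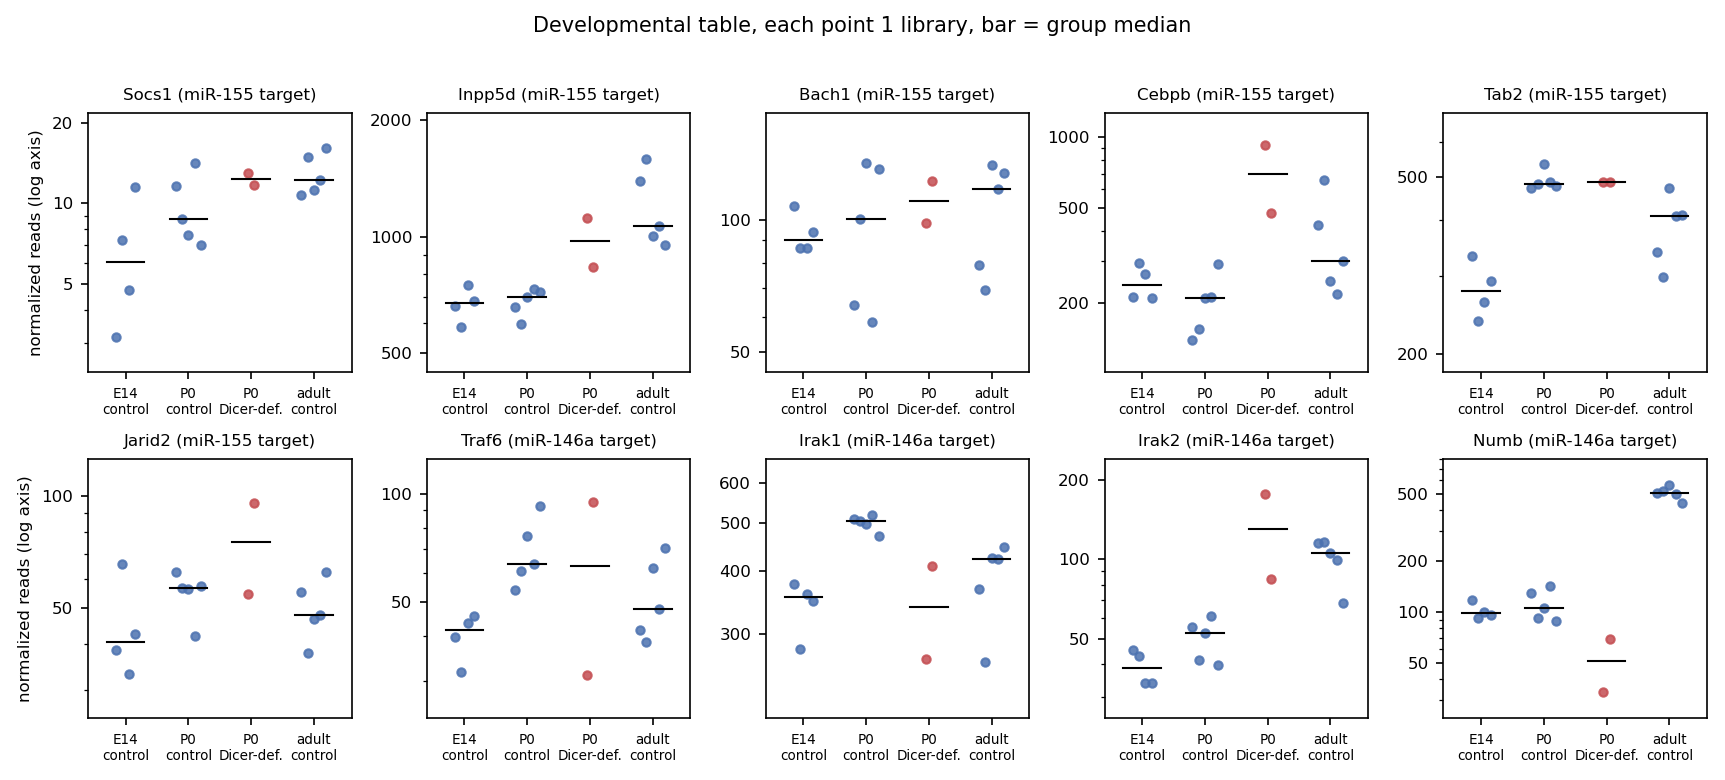
Normalized reads of the 10 targets in the 16 libraries of the developmental table on log axes, with 1 point per library and a bar at the group median. Numb is 437 to 560 in adults and 143 or lower in all younger libraries, Irak1 and Tab2 are higher at P0 than at E14, and Cebpb in the newborn Dicer-deficient libraries (475 and 920) is above the P0 controls.

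Markers of other cells moved with some of these contrasts. In total brain the 12 markers of monocytes and neutrophils summed to 1000 to 1170 in steady-state controls, 1170 to 1350 in steady-state Dicer-deficient libraries, 575 to 898.5 in 3 controls after LPS and 4454 in library 33, and 1166 to 4041 in Dicer-deficient libraries after LPS. The 7 microglial markers summed to 33890 to 42980 in the steady-state libraries and to 11690 to 15640 in the LPS libraries other than library 33. Summed neuronal markers were 27.9 to 35 in Dicer-deficient and 5.2 to 11.4 in control libraries after LPS, and the lymphocyte markers summed to at most 9.9, with Cd3e at 0 in all 14 libraries. In the hippocampus the monocyte and neutrophil sum was 8490 to 8880 in steady-state Dicer-deficient libraries, 1620 to 3280 in steady-state controls, 764 to 1020 in Dicer-deficient libraries after LPS and 454 to 1740 in controls after LPS. The 7 border macrophage markers there summed to 295 to 477 at steady state and to at most 35.5 after LPS. In the developmental table they summed to 477 to 748 at E14, 801 to 1100 at P0 and 20.2 to 81.3 in adults, and the neuronal markers to 147 to 459, 42.9 to 77.1 and 6.14 to 13.2. In newborns the microglial sum was 8590 to 10500 in Dicer-deficient and 12700 to 16300 in control libraries. The part of these cells in the target results was not tested.

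Genes around the targets in their pathways give the setting of these values. Of 22 other genes from the Toll-like receptors to NF-kB, LPS raised 5 and lowered 1 in total brain controls, and raised 7 and lowered 4 in Dicer-deficient microglia (14.1% and 24.9% of all genes were called). Among those raised in both were the receptor Tlr2 (2.14 ± 0.39 and 2.93 ± 0.39) and the NF-kB inhibitors Nfkbia (1.22 ± 0.28 and 2.18 ± 0.28) and Tnfaip3 (1.31 ± 0.29 and 3.13 ± 0.29). Between genotypes after LPS, Tnfaip3 and the adaptor Myd88 were higher in Dicer-deficient microglia (1.30 ± 0.27, adjusted p = 0.0065, and 0.63 ± 0.19, adjusted p = 0.0452), and the other 20 were not called. In adults, where 5.15% of all genes were called, 3 of the 21 tested were higher in Dicer-deficient microglia, the receptor Tlr4 (0.62 ± 0.16), the adaptor Tirap (0.81 ± 0.18) and Nfkb1 (0.57 ± 0.16), and none was lower. Of the SOCS family and the PI3K genes near SHIP1, 3 of 14 were higher and 1 lower in Dicer-deficient than in control microglia after LPS (8.87% of all genes were called). The higher ones were the cytokine signalling inhibitors Socs3 (1.56 ± 0.44, adjusted p = 0.0324), Socs2 (2.58 ± 0.68, adjusted p = 0.0238) and Cish (2.10 ± 0.62, adjusted p = 0.0424), and the lower one was SHIP2's gene Inppl1 (-0.88 ± 0.22, adjusted p = 0.0203). Socs3 was also higher in Dicer-deficient libraries of steady-state hippocampus (1.79 ± 0.22, adjusted p = 0.00702) and of newborns (1.88 ± 0.36, adjusted p = 0.0319).

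The partners of the transcription factors did not all move with them. Of 11 tested partners and targets of Bach1, 1 was higher and 1 lower in Dicer-deficient microglia of total brain after LPS, where 8.87% of all genes were called. The first was the small Maf gene Maff (2.27 ± 0.44, adjusted p = 0.00405), whose interaction of 4.77 ± 0.67 was called (adjusted p = 0.00389), and the second was Ftl1, ferritin light chain (-0.95 ± 0.26, adjusted p = 0.0302), whose reads may be shared with near-identical gene copies. Maff was lower in Dicer-deficient microglia at steady state (-2.51 ± 0.51, adjusted p = 0.0136). Ftl1 was also lower in Dicer-deficient libraries of the adult table (-0.86 ± 0.22) and of total brain at steady state (-1.37 ± 0.30). Of 5 other C/EBP genes, 1 rose and 2 fell with LPS in total brain in each genotype, with a median difference of -0.49 in controls and 0.00 in Dicer-deficient microglia. Of all genes, 14.1% were called in controls and 24.9% in Dicer-deficient microglia. Cebpd rose (1.45 ± 0.39 and 1.39 ± 0.39), while Cebpg (-0.91 ± 0.24 and -1.52 ± 0.24) and Cebpa (-0.79 ± 0.25 and -0.98 ± 0.25) fell. Among 10 PRC2 genes, whose complex Jarid2 joins, 2 were higher and 6 lower in adults than at P0 (38.8% of all genes were called), with Phf19 at -3.06 ± 0.46. Of 13 Notch pathway genes, which Numb limits, 6 were higher and 1 lower in the same comparison, among them the target gene Hes1 (2.44 ± 0.28). In newborn Dicer-deficient libraries 2 of 13 were called (1.48% of all genes), both higher: Hes1 (2.64 ± 0.40, adjusted p = 0.0122) and Notch4 (4.10 ± 0.71, adjusted p = 0.0231).

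Other genes described elsewhere as targets of the same microRNAs gave mixed signs. Of 24 others for miR-155, 3 of 23 tested were called in adult Dicer-deficient microglia (5.15% of all genes), all higher: the clock gene Arntl (1.82 ± 0.41), the corepressor Tle4 (0.75 ± 0.19) and the adaptor Sla (0.60 ± 0.16). Arntl and Tle4 were again higher in total brain at steady state (2.08 ± 0.39, adjusted p = 0.00876, and 0.92 ± 0.22, adjusted p = 0.0407). In total brain after LPS 2 were higher and 2 lower (8.87% of all genes were called), led by Hivep2 (1.80 ± 0.23, adjusted p = 0.000151) and the ubiquitin ligase Peli1 (-0.79 ± 0.18, adjusted p = 0.00963). Of 8 others for miR-146a, the NF-kB subunit Relb was higher after LPS (1.70 ± 0.25, adjusted p = 0.000577) and the chemokine receptor Cxcr4 lower (-1.74 ± 0.50, adjusted p = 0.0378). Relb was also called in the interaction, at 2.27 ± 0.38 (adjusted p = 0.0155), while limma called no target among the 10 there.

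The search for an 8-base match was also set beside the genotype differences of all genes. In adults the 352 tested genes with the miR-155 match had a median genotype difference of 0.11 and the 10130 without it 0.05. For the 477 with the miR-146a match the median was 0.13, against 0.05 for the others. Of these matched genes 3.98% and 4.40% were called in either direction, beside 5.27% of the genes without each match. In total brain after LPS the medians were -0.10 with and -0.09 without the miR-155 match, and -0.08 and -0.09 for miR-146a. There 11.1% with and 9.0% without the miR-155 match were called, and 6.74% and 9.18% for miR-146a. In newborns the medians were -0.04 and -0.05 for miR-155, and -0.10 and -0.05 for miR-146a. The shares called were 2.07% with and 1.46% without the miR-155 match, and 0.564% and 1.52% for miR-146a. In total brain at steady state all 4 medians were -0.08, and the shares called were 2.28% and 2.23% for miR-155, and 1.82% and 2.25% for miR-146a. In the hippocampus the medians with and without the miR-155 match were 0.00 and -0.07 at steady state and 0.08 and -0.05 after LPS, and for miR-146a -0.03 and -0.07, and 0.02 and -0.05.

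Over the 14 total brain libraries, the genes whose log2 pattern was most like that of Socs1, out of 6712 genes in the upper part of the expression range, were Rhbdd2 (Pearson r = 0.937), Tap1 (0.928) and Igtp (0.922). Those most like Numb were Srpk3 (0.983), Col27a1 (0.983) and Stk10 (0.978). The 14 libraries share genotype and LPS groups, so these values describe a shared pattern over groups and carry no test.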

How the data were processed

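The authors deposited 4 tables of signal: read counts per gene multiplied by 1 scaling factor per library. How the factors were set is not given in the sources used here. The submitters' processing notes name bcl2fastq, HISAT 0.1.5, SAMtools, HOMER, DESeq2 and mm9, with no role or order. Dividing by each library's factor gave whole reads, within 0.1 read, for at least 99.946% of values per library. No column lacked a sample.

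limma 3.58.1 (R 4.3.3) with a variance trend was fitted to log2(value + 1), with 1 mean per group, keeping genes that reached a value of 1 in a number of libraries equal to the smallest group's size. Each table had 1 fit, and the newborn comparison had its own fit of 5 libraries. The pseudocount understates changes of genes with few reads. The reads were also tested with edgeR 4.0.16 and DESeq2 1.42.0, and each library was left out in turn. The procedure was tested on simulated data. No 2 libraries of a group agreed within counting noise (lowest chi-square per degree of freedom 2.26).

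The members and lists were chosen with earlier results of these data known. All 10 targets are named. Of other lists, up to 3 called genes with the smallest p in a comparison are named, and for Socs1 and Numb the 3 genes with the highest correlation. The reference build GRCm38 differs from mm9, so no gene coordinates are printed. 1 microglial marker gene is not reported here and is not in the sums.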

Additional observations from a re-analysis of the deposited data

Results flagged for a closer look

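The genotype difference of Numb had different signs between settings, though limma called only that in adults. Every Dicer-deficient library was above every control in adults (0.96 on the log2 scale, limma adjusted p = 0.00187). The same held in total brain at steady state (0.23, adjusted p = 0.729) and in the hippocampus after LPS (0.28, adjusted p = 0.933, 2 libraries per group). In newborns both Dicer-deficient libraries were below every control (-1.14, adjusted p = 0.139). That was -0.63 without Dicer-deficient library 1, which held 13 reads. In total brain after LPS the groups overlapped (0.09, adjusted p = 0.856). The tables were scaled separately and the difference was not tested.

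Tab2 in P0 control library 3 was 535.1 normalized reads, far from the other 4 libraries of its group for their spread. It was the only one so marked among 60 sets of target values in groups of 4 or 5 libraries, and chance marks about 1 in 20.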

How the results depend on the processing

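Of 150 results of a target in a comparison, 30 were called, 16 of them in every alternative tried. None of the 30 changed sign, 14 lost the call in some alternative, and 17 uncalled results were called in some. In total brain after LPS 2 targets were called between genotypes with edgeR (TMM or RLE scaling) and with DESeq2, in place of 1. DESeq2 called 1 for the total brain interaction. In hippocampus controls a fit of only the groups compared called 1 for LPS. Without adult controls 1 and 2 (chosen after seeing the data) 3 targets were called between adult and P0, in place of 6. In newborns 0 were called at a pseudocount of 0.1, 2 with RLE scaling or DESeq2, and 3 with all 5 P0 controls. Traf6 in newborns changed from -0.20 to 0.038 (TMM), 0.062 (RLE) and 0.036 (DESeq2), and ranged from -0.99 to 0.58 with 1 library left out. The causes were not tested.

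Leaving out 1 library gave 1 to 2 called targets in adults. In total brain it gave 1 to 2 between genotypes after LPS and 0 to 1 for the interaction. For LPS there it gave 2 to 4 in controls and 4 to 7 in Dicer-deficient libraries. In the hippocampus the call of Numb after LPS was lost without some libraries, as given above. Leaving out 1 library gave 1 to 3 for P0 against E14 and 3 to 6 for adult against P0. In newborns the calls also depended on the library left out. A lone library in a group was assumed to vary like the other groups. With the replicate block, same-numbered libraries being a shared number only (every correlation at most 0.097), called targets were 1 in adults, 4 for P0 against E14, 7 for adult against P0, 6 for adult against E14 and 1 in newborns. The block added Cebpb (-0.46 and 0.53 against E14) and Traf6 (-0.42). Its own counts over all genes are not given here. Settings other than leaving out 1 library, the block among them, called 2627 to 4322 genes for P0 against E14 (3222 reported). They called 4287 to 6012 for adult against P0 (5798) and 5377 to 7738 for adult against E14 (7282). With 1 library left out the counts were 344 to 634 in adults, and 2211 to 2892, 5278 to 5546 and 6539 to 7135 for these stage comparisons. They were 723 to 1187 in total brain between genotypes after LPS (1190 reported) and 13 to 92 for its interaction (23). For LPS in total brain Dicer-deficient libraries they were 2351 to 3466 (3349). TMM scaling moved the median of all genes in adult against E14 from -0.15 to -0.05. Over all genes, counts called ranged from 450 to 682 in adults (569 reported), 206 to 552 in total brain at steady state (292), 1048 to 2132 for LPS in its controls (1897; 872 to 3388 with 1 library left out), 21 to 165 for its interaction (23), 8 to 213 and 7 to 210 in the hippocampus between genotypes (21 and 38), 2 to 33 for its interaction (2), and 108 to 1120 in newborns (194), where leaving out 1 library gave 0 to 4716. Depth limits Socs1 most, with 2 to 10 reads in adult libraries, where counting error is largest.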

Other observations

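In total brain the row of Mir146 held 2 reads, both in 1 of the 14 libraries, and that of Mir146b held 0. In the developmental table Mir146 held 1 read, in 1 of the 16 libraries. At totals of 42283936 and 35408455 reads, a count of 0 allows up to 3 reads for a whole table.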
